A study of Mus musculus with 26 samples.

Results

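Cholesterol and fatty acid synthesis genes were described in C2C12 cells, a mouse myoblast line that fuses into myotubes when serum is withdrawn. The set holds 33 named genes of the lipid synthesis programme, out of 55341 genes listed per library, and all 33 were found by symbol and passed the low-count filter in both experiments. They comprise 7 genes of the mevalonate pathway, 12 of the squalene and sterol steps, 6 of SREBP control and sterol transport, and 8 of fatty acid synthesis and desaturation. RNA-seq counts came from 26 libraries. In the siRNA experiment, C2C12 myoblasts were transfected with a control siRNA (siCtrl) or with siSMYD3#1 or siSMYD3#2, which are directed against the methyltransferase SMYD3, and were collected in growth medium (0 h) or 24 h after the switch to differentiation medium, with 3 libraries per group. In each of these groups RNA of 2 libraries was extracted with NucleoSpin columns and that of 1 library with TRIzol. The TRIzol libraries also came from another passage of the cells, so extraction, passage and replicate cannot be told apart. In the second experiment, a line carrying the empty pREV retroviral vector and SMYD3 CL5, which is 1 clone carrying HA-Flag-tagged SMYD3 from the same vector, were collected at 0 h and 24 h, with 2 TRIzol libraries per group.

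The enzymes of the mevalonate pathway turn acetyl-CoA into isoprenoid units, and the squalene and sterol enzymes join and cyclise these units into cholesterol. Transcription of nearly all of these genes is driven by SREBP2, encoded by Srebf2, while SREBP1, encoded by Srebf1, acts mainly on the fatty acid genes. The precursors of both factors sit in the endoplasmic reticulum with the escort protein SCAP, and are retained there by the INSIG proteins when sterols are plentiful. When sterols run low, the complex moves to the Golgi and the factors are released by cleavage. Insig1 is itself an SREBP target and is commonly read as a marker of the activity of the pathway.

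Promoter windows from RefSeq (GRCm38.p6), from 250 bases before to 50 bases after a start site, were matched by symbol for 26 of the 33 genes, in 34 windows. The windows of 3 genes whose levels carry the results described next are shown 5′ to 3′ on the gene's strand: Hmgcs1 (chr13:119690101-119690400, plus strand), Insig1 (chr5:28071162-28071461, plus strand) and Msmo1 (chr8:64733529-64733828, minus strand). Capitals mark a sterol regulatory element written as TCACNCCAC and the NF-Y box, CCAAT, on either strand.
Hmgcs1: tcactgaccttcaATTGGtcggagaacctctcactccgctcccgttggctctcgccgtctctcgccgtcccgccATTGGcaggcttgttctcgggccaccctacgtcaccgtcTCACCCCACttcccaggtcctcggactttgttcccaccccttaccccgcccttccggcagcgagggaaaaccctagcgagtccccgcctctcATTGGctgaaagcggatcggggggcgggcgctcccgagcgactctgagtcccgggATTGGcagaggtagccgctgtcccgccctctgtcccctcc
Insig1: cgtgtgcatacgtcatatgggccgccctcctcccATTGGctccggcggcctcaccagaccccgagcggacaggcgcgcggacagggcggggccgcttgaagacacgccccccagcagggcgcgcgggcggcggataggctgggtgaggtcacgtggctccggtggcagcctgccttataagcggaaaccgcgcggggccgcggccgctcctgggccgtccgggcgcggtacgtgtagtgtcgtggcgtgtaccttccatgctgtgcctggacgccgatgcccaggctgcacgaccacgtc
Msmo1: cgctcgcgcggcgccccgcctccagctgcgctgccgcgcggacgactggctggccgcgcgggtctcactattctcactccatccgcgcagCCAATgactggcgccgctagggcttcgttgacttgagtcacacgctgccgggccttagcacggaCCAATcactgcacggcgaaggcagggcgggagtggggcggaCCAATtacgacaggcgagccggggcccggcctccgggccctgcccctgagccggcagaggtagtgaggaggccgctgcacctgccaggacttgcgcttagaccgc
The sterol regulatory element was searched on both strands with no mismatch. It was found in 1 of the 26 genes, Hmgcs1, with its first base at position -137 from the start site, and in 1.24% of all 32851 windows. The NF-Y box was found in 21 of the 26 genes (64.7% of their windows against 37.4% of all windows), the Sp1 box GGGCGG in 22 (76.5% against 35.7%) and the E-box CACGTG in 5 (17.6% against 7.15%). These are matches of letters and say nothing of binding.

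Library totals ran from 14315193 to 60398170 counts in the siRNA experiment and from 21124675 to 67853386 in the lines, and the lowest count of any of the 33 genes in any library was 149 (Idi1). Smyd3, the targeted gene, stood at 20.5, 19.5 and 21.7 CPM (counts scaled to library size, with TMM factors) in siCtrl cells at 0 h, against 19.3, 16.9 and 19.0 in those labelled siSMYD3#1 and 7.56, 8.93 and 6.37 in those labelled siSMYD3#2. It was lower with siSMYD3#2 at 0 h (log2 fold change -1.41 ± 0.16 SE, adjusted p = 0.000107, edgeR) and at 24 h (-1.51 ± 0.17, adjusted p = 5.06e-05), but not past the threshold of 0.01 with siSMYD3#1 (-0.16 ± 0.16, adjusted p = 0.785 at 0 h, and -0.24 ± 0.16, adjusted p = 0.414 at 24 h), nor in SMYD3 CL5 against vector (0.29 ± 0.27, adjusted p = 0.593 at 0 h). The groups are therefore called by their labels. The study also measured SMYD3 by qPCR and western blot after siRNA transfection. It reports tagged SMYD3 in its clones by western blot and immunofluorescence. The values here are RNA-seq counts alone and do not bear on the protein. In bulk RNA, fewer cells of a type and less RNA per cell cannot be told apart. None of the 8 muscle markers was at 3 counts or fewer throughout (0 of 8), but their summed level at 0 h was 217 to 257 CPM in TRIzol siRNA libraries and 1153 to 1526 in NucleoSpin ones. Des, the desmin gene, made up most of that gap, and without it the sums were 149 to 173 and 306 to 408 CPM. At 0 h, 5 of the 8 were lower in every TRIzol library than in any NucleoSpin one, while Myf5 overlapped. Of 7 adipocyte markers, 4 had at most 3 counts in every siRNA library, as had all 4 hepatocyte markers. Among the others Pparg was detected at 0 h, at 25.03 to 27.57 CPM in TRIzol and 17.09 to 19.54 CPM in NucleoSpin libraries. At 24 h Pparg was lower with TRIzol, at 6.614 to 7.08 CPM against 10.32 to 14.36 CPM. Cebpa at 0 h was at 2.098 to 3.416 CPM in TRIzol and 3.16 to 5.568 CPM in NucleoSpin libraries, which overlapped. Fabp4 had at most 9 counts in any siRNA library.

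The genes differed widely in abundance. Per kilobase of exon, Scd2, a stearoyl-CoA desaturase, had the highest mean level over the siRNA libraries (438 CPM per kb), followed by its paralogue Scd1 (115), Srebf2 (77.9), the ATP-citrate lyase gene Acly (65.4) and Hmgcs1 (63.7), which encodes HMG-CoA synthase. The same 4 genes led the order in the lines, with 202, 74.2, 54.4 and 47.7 CPM per kb. At the other end were Lss (6.69), which encodes lanosterol synthase, and Tm7sf2 (4.99), a sterol reductase gene. The ranges over single libraries of neighbours in this order mostly overlapped. Scd2 is the exception, as its lowest library (279 CPM per kb) lay above the highest library of Scd1 (168).

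**Figure D1:**
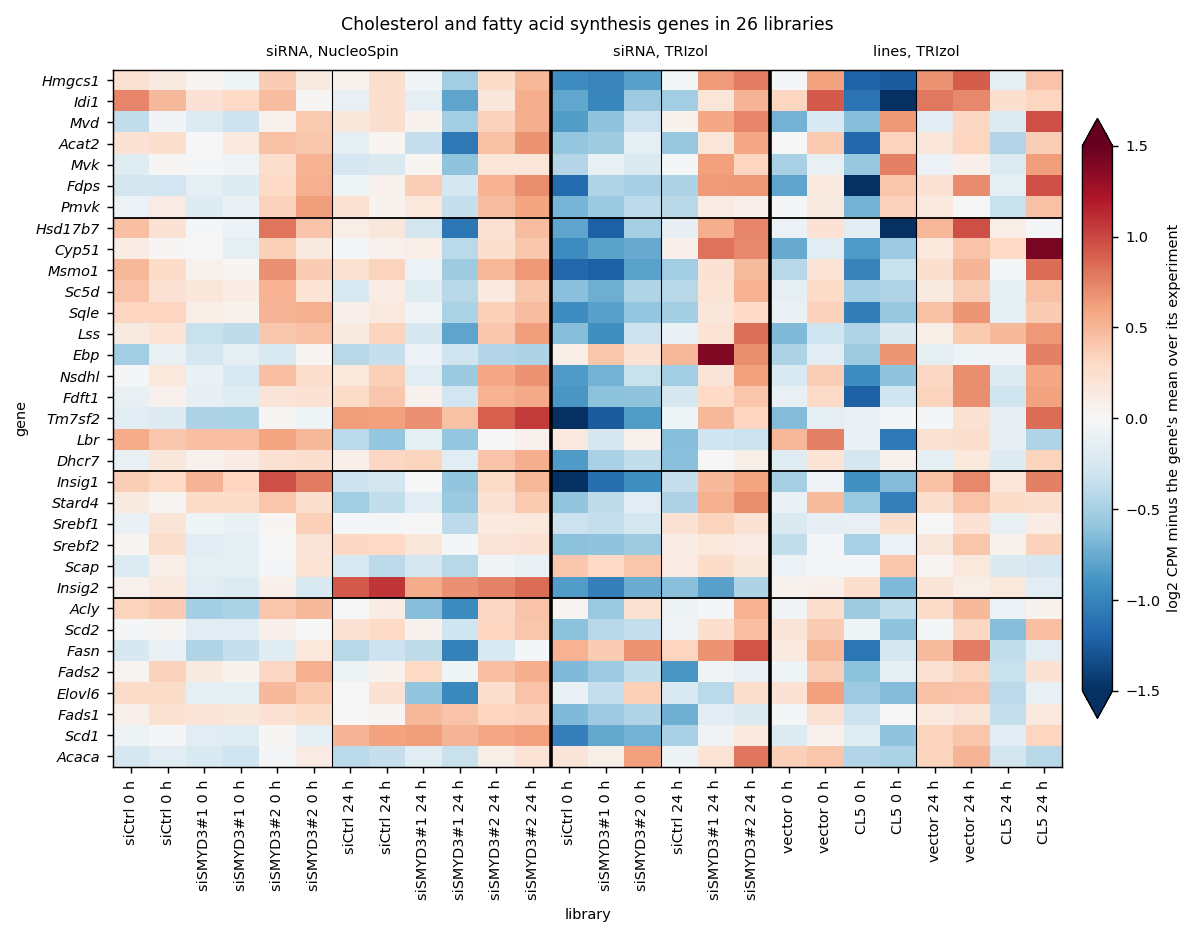
Log2 level of each of the 33 genes (rows, in 4 groups: mevalonate, squalene and sterol steps, SREBP control, fatty acid) in each of the 26 libraries (columns, grouped by experiment, extraction method and time), minus the mean of that gene over its experiment. The 3 TRIzol siRNA libraries at 0 h are low for most sterol genes, the second siSMYD3#1 NucleoSpin library at 24 h is lower than the first, and Insig2, Scd1 and Tm7sf2 are high in the NucleoSpin libraries at 24 h.

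The first question was how these genes move in the first 24 h of differentiation. In siCtrl cells 4 of the 33 genes passed the threshold, 3 higher and 1 lower (12.1%), against 29.4% of all 15820 genes tested (edgeR quasi-likelihood test with extraction method as covariate, adjusted p under 0.01). The median log2 fold change was 0.06 for the 33 genes and 0.03 for all genes. Tm7sf2 rose by a log2 fold change of 1.01 ± 0.18 SE (adjusted p = 0.000166), Insig2 by 0.68 ± 0.15 (adjusted p = 0.00174) and Scd1 by 0.59 ± 0.11 (adjusted p = 0.000222). Lbr, which encodes a nuclear envelope protein that is also a sterol reductase, fell by 0.91 ± 0.13 (adjusted p = 2.02e-05).

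The same genes can be followed library by library. Tm7sf2 stood at 17.4 and 17.2 CPM in the NucleoSpin libraries and 6.29 in the TRIzol library of siCtrl cells at 0 h, and at 30.4, 30.2 and 18.9 at 24 h. Lbr went from 118, 107 and 89.2 CPM to 60.7, 53.9 and 51.8. Scd1 went from 505, 524 and 262 CPM to 759, 808 and 381. For all 3 genes every library at 24 h lay beyond its counterpart of the same extraction method at 0 h. Insig2 went from 77.6 and 82.6 CPM to 141 and 156 CPM in the NucleoSpin libraries, whereas the TRIzol libraries held 41.6 CPM at 0 h and 48.2 at 24 h.

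Cells labelled siSMYD3#1 gave 4 genes higher and 1 lower at 24 h than at 0 h (25.4% of all genes passed, 12.7% in each direction). Those labelled siSMYD3#2 gave 3 higher and 1 lower (19.0% of all genes, 9.11% higher and 9.88% lower). Tm7sf2 (1.31 ± 0.18 and 1.05 ± 0.18), Scd1 (0.73 ± 0.11 in each) and Insig2 (0.62 ± 0.15 and 0.66 ± 0.15) were higher and Lbr lower (-0.54 ± 0.13 and -0.47 ± 0.13) with each siRNA. Tm7sf2 went from 14.3, 14.2 and 8.32 CPM to 31.7, 26.8 and 27.8 CPM with siSMYD3#1, and from 20.0, 18.9 and 11.1 CPM to 36.8, 40.6 and 24.7 CPM with siSMYD3#2. Lbr went from 110, 110 and 67.6 CPM to 73.2, 53.7 and 65.4 CPM, and from 121, 113 and 84.2 CPM to 80.6, 84.0 and 64.1 CPM. Within each extraction method Tm7sf2 was higher and Lbr lower at 24 h, although the TRIzol libraries of Lbr with siSMYD3#1 differed little. The call for Lbr was lost in 3 of the 18 fits that left out 1 library with siSMYD3#1, and in 12 of 18 with siSMYD3#2. Fads1, the delta-5 fatty acid desaturase gene, was the fifth gene with siSMYD3#1 (0.31 ± 0.07, adjusted p = 0.00283). The difference between each siRNA and siCtrl in the change over time passed the threshold for 0 of the 33 genes, against 0.215% of all genes for siSMYD3#1 (0.0442% higher) and 0.019% for siSMYD3#2. At an unadjusted p under 0.05 these tests gave 2 and 3 of the 33 genes, against 1388 and 1585 of all 15820 genes tested. With DESeq2 the difference for siSMYD3#1 passed for 1 gene and that for siSMYD3#2 for 0. Calls with siSMYD3#1 fell to 2 or 3 on leaving out any of its NucleoSpin libraries, and those with siSMYD3#2 fell to 2 without either NucleoSpin library at 0 h or the second at 24 h.

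The pooled values hide a difference between the NucleoSpin and TRIzol libraries. At 0 h, 25 of the 33 genes were lower and 4 higher in TRIzol libraries, against 43.9% of all genes past the threshold (21.7% lower and 22.1% higher). The median log2 difference was -0.69 for the 33 genes and 0.00 for all genes. This fit was added after the data had been seen and holds a term for the interaction of time and extraction method. At 24 h only 6 genes were lower and 6 higher (44.7% of all genes), with a median of 0.07. The fit gives all treatments the same difference between the methods at each time, but the libraries differed by treatment. The mean log2 level of the 19 mevalonate and sterol genes was taken relative to all siRNA libraries. At 24 h it was still lower with TRIzol in siCtrl (-0.27 against 0.025 and 0.136 with NucleoSpin). With siSMYD3#1 it was 0.377 against 0.002 and -0.486, and with siSMYD3#2 0.475 against 0.33 and 0.484.

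The genes of the mevalonate and sterol pathways made up most of this pattern. Insig1 was at 94.3, 104 and 150 CPM (lowest, median and highest of 6 NucleoSpin libraries) at 0 h, whereas the 3 TRIzol libraries held 26.2, 35.0 and 40.5 CPM. Msmo1, a methylsterol monooxygenase gene, was at 145, 179 and 229 CPM in NucleoSpin libraries and at 60.5, 62.7 and 81.7 in TRIzol libraries. Sqle, which encodes squalene epoxidase, was at 276, 333 and 385 CPM against 140, 152 and 178. In none of these 3 genes did the methods overlap at 0 h. The log2 differences were -1.74 ± 0.14 (adjusted p = 3.72e-08), -1.40 ± 0.19 (adjusted p = 3.48e-05) and -1.08 ± 0.14 (adjusted p = 8.49e-06), respectively.

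The libraries of Fasn, Ebp and Scap stayed apart between the methods at both times, higher with TRIzol. Those of Insig2, Scd1 and Fads1 did so too, lower with TRIzol. The share of all genes whose libraries stayed apart in this way was not counted, so it is not shown to be particular to these genes. Fasn, which encodes fatty acid synthase, was at 379 to 578 CPM in NucleoSpin and 675 to 831 in TRIzol libraries at 0 h, and at 258 to 516 and 650 to 999 at 24 h. Ebp, a sterol isomerase gene, was likewise higher with TRIzol (0.45 ± 0.11 at 0 h and 1.22 ± 0.11 at 24 h). Acaca, which encodes acetyl-CoA carboxylase, and Scap were higher by 0.44 ± 0.07 and 0.41 ± 0.08 at 0 h, but the libraries of Acaca overlapped between the methods at each time. In the fit without the interaction term, these 4 genes were the ones higher in TRIzol libraries, by log2 differences of 0.42 to 0.88, and 9 genes were lower (51.3% of all genes passed). The lower ones were Insig2 (-1.12 ± 0.10), Scd1 (-0.72 ± 0.07), Tm7sf2 (-0.71 ± 0.11), Fads1 (-0.70 ± 0.05), the delta-6 desaturase gene Fads2 (-0.65 ± 0.08), Dhcr7 (-0.56 ± 0.09), which encodes the last reductase of cholesterol synthesis, Pmvk (-0.46 ± 0.11), the phosphomevalonate kinase gene, Srebf2 (-0.33 ± 0.09) and Lbr (-0.33 ± 0.08).

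The change from 0 h to 24 h differed accordingly. Over the 3 treatments, 20 genes rose and 1 fell in the TRIzol libraries (32.0% of all genes passed, 15.4% upwards), with a median of 0.69 against -0.01 for all genes. In the NucleoSpin libraries 3 rose and 4 fell (50.6% of all genes passed), with a median of -0.04 against 0.02. The genes that rose in TRIzol libraries were 4 of 7 in the mevalonate pathway, 10 of 12 in the squalene and sterol steps, 4 of 6 in SREBP control and sterol transport and 2 of 8 in fatty acid synthesis. Within the TRIzol libraries alone, which are 1 per group, the median change was 0.40 in siCtrl cells (25 of 33 genes higher at 24 h), 0.76 with siSMYD3#1 (30 of 33) and 0.81 with siSMYD3#2 (30 of 33). In the NucleoSpin libraries it was -0.11 (12 of 33), -0.13 (14 of 33) and 0.07 (20 of 33). Of all genes 48.5%, 49.6% and 47.5% were higher at 24 h with TRIzol and 51.4%, 50.8% and 50.6% with NucleoSpin.

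**Figure D2:**
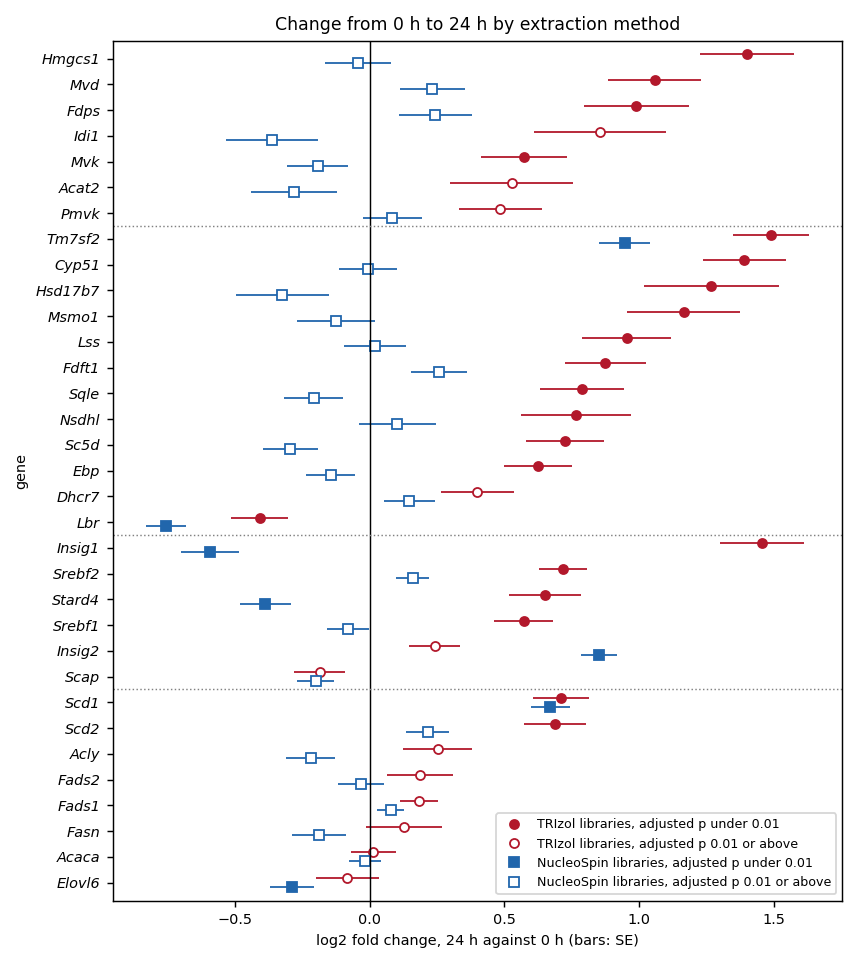
Log2 fold change between 24 h and 0 h over the 3 siRNA treatments for each gene, in TRIzol libraries (circles) and NucleoSpin libraries (squares), with SE as bars. Filled symbols passed an adjusted p of 0.01, and dotted lines divide the 4 groups of genes. In the upper 2 groups nearly all circles lie to the right, between 0.40 and 1.49 except for Lbr at -0.41, while most squares lie near 0.

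The difference between the methods in this change passed the threshold for 13 genes, 12 with a higher change in TRIzol libraries and Insig2 with a lower one, against 10.3% of all genes (4.77% higher and 5.58% lower). The median difference was 0.65 for the 33 genes and -0.01 for all genes. Of the 12, 1 belongs to the mevalonate pathway, 7 to the squalene and sterol steps and 4 to SREBP control and sterol transport. None of the 8 fatty acid genes passed the threshold in edgeR, and 2 of them, Acly and Scd2, had an unadjusted p under 0.05. Over all 15820 genes tested 5148 had such a p. Leaving out the siCtrl TRIzol library at 24 h raised the count to 21, all higher, and the share over all genes in that fit is not given here.

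Insig1 had the largest difference (2.05 ± 0.19, adjusted p = 1.52e-06). Its TRIzol libraries went from 26.2, 35.0 and 40.5 CPM at 0 h to 60.4, 107 and 116 CPM at 24 h, whereas NucleoSpin libraries went from 94.3 to 150 CPM down to 50.7 to 108 CPM. It thus rose in the former (1.46 ± 0.16, adjusted p = 1.41e-06) and fell in the latter (-0.59 ± 0.11, adjusted p = 0.000157). Stard4, which encodes a sterol carrier, showed the same opposition, with a rise of 0.65 ± 0.13 (adjusted p = 0.00062) in TRIzol and a log2 change of -0.39 ± 0.10 (adjusted p = 0.00169) in NucleoSpin libraries.

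Among the enzymes, Hmgcs1, Cyp51 and Hsd17b7 rose in TRIzol libraries and had no call in NucleoSpin libraries. Hmgcs1 went from 140, 145 and 158 CPM to 273, 432 and 470 CPM in TRIzol libraries (1.40 ± 0.17, adjusted p = 1.16e-05), and its NucleoSpin libraries had a median of 305 CPM at 0 h and 307 at 24 h (-0.04 ± 0.12). Cyp51, the lanosterol demethylase gene, went from 111, 122 and 126 CPM to 224, 351 and 375 CPM in TRIzol libraries, with medians of 223 and 225 CPM in NucleoSpin libraries. Hsd17b7, a sterol ketoreductase gene, went from 22.4, 30.1 and 37.0 CPM to 48.0, 76.0 and 86.8 CPM with TRIzol, against NucleoSpin medians of 65.4 and 57.4 CPM. At 24 h the levels of these 3 genes overlapped between the methods. Msmo1 (1.29 ± 0.26), Sc5d (1.02 ± 0.18), a sterol desaturase gene, Sqle (1.00 ± 0.19), Lss (0.94 ± 0.20) and Ebp (0.77 ± 0.16) were the other enzymes whose change differed. The calls for Lss and Hsd17b7 were each lost in 3 of the 18 fits that left out 1 library, and that for Msmo1 in 2.

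Other enzymes rose in the TRIzol libraries, but the difference between the methods did not pass for them. They were Mvk (0.57 ± 0.16), the mevalonate kinase gene, Mvd (1.06 ± 0.17), the mevalonate diphosphate decarboxylase gene, Fdps (0.99 ± 0.20), the squalene synthase gene Fdft1 (0.87 ± 0.15) and the sterol dehydrogenase gene Nsdhl (0.77 ± 0.20). Mvd, for example, went from 24.4, 28.8 and 35.0 CPM to 45.2, 65.1 and 72.7 CPM with TRIzol, and had medians of 40.2 and 50.4 CPM with NucleoSpin. The estimates for Idi1 (0.85 ± 0.24, adjusted p = 0.013), Pmvk (0.48 ± 0.15, adjusted p = 0.0177), Acat2 (0.53 ± 0.23, adjusted p = 0.0821) and Dhcr7 (0.40 ± 0.14, adjusted p = 0.0221) were positive and missed the threshold. Tm7sf2 rose with each method, by 1.49 ± 0.14 and 0.95 ± 0.10, and Lbr was lower with each, by -0.41 ± 0.11 and -0.76 ± 0.07. On leaving out 1 library, the TRIzol call was lost in 9 of 18 fits for Nsdhl, in 5 for Mvk and in 4 for Lbr. The estimate for Nsdhl was 0.45 without the siSMYD3#1 TRIzol library at 24 h and 1.09 without the siCtrl one at 24 h, and that for Mvk was 0.35 without the siSMYD3#1 TRIzol library at 24 h.

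The SREBP genes themselves were followed next. Srebf2 was at 488, 558 and 659 CPM (lowest, median and highest) in NucleoSpin libraries at 0 h and at 541, 632 and 681 CPM at 24 h, while the 3 TRIzol libraries went from 357, 362 and 379 CPM to 593, 600 and 613 CPM. Srebf1 was at 95.9, 101 and 132 CPM and then 77.8, 101 and 114 CPM in NucleoSpin libraries, and went from 79.8, 82.0 and 85.6 CPM to 119, 119 and 130 CPM in TRIzol libraries. The difference in change was 0.56 ± 0.11 for Srebf2 (adjusted p = 0.00108) and 0.65 ± 0.14 for Srebf1 (adjusted p = 0.0018). Scap did not follow them (0.02 ± 0.12, adjusted p = 0.95).

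Insig2 ran the other way. In NucleoSpin libraries it was at 63.3, 72.0 and 82.6 CPM at 0 h and at 110, 129 and 156 CPM at 24 h, so that the times did not overlap (0.85 ± 0.07, adjusted p = 8.74e-10). In TRIzol libraries it was at 36.5, 41.6 and 44.5 CPM and then 42.5, 48.2 and 54.2 CPM (0.24 ± 0.10, adjusted p = 0.045). The difference was -0.61 ± 0.12 (adjusted p = 0.000809). Scd1, by contrast, rose alike with each method (0.71 ± 0.10 and 0.67 ± 0.07), with a difference of 0.04 ± 0.13. Scd2 was at 2090, 2328 and 2467 CPM in NucleoSpin libraries at 0 h and at 1902, 2808 and 3121 CPM at 24 h, and rose from 1526, 1755 and 1837 CPM to 2267, 2769 and 3214 CPM with TRIzol. Its difference of 0.47 ± 0.14 did not pass the threshold (adjusted p = 0.0218).

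**Figure D3:**
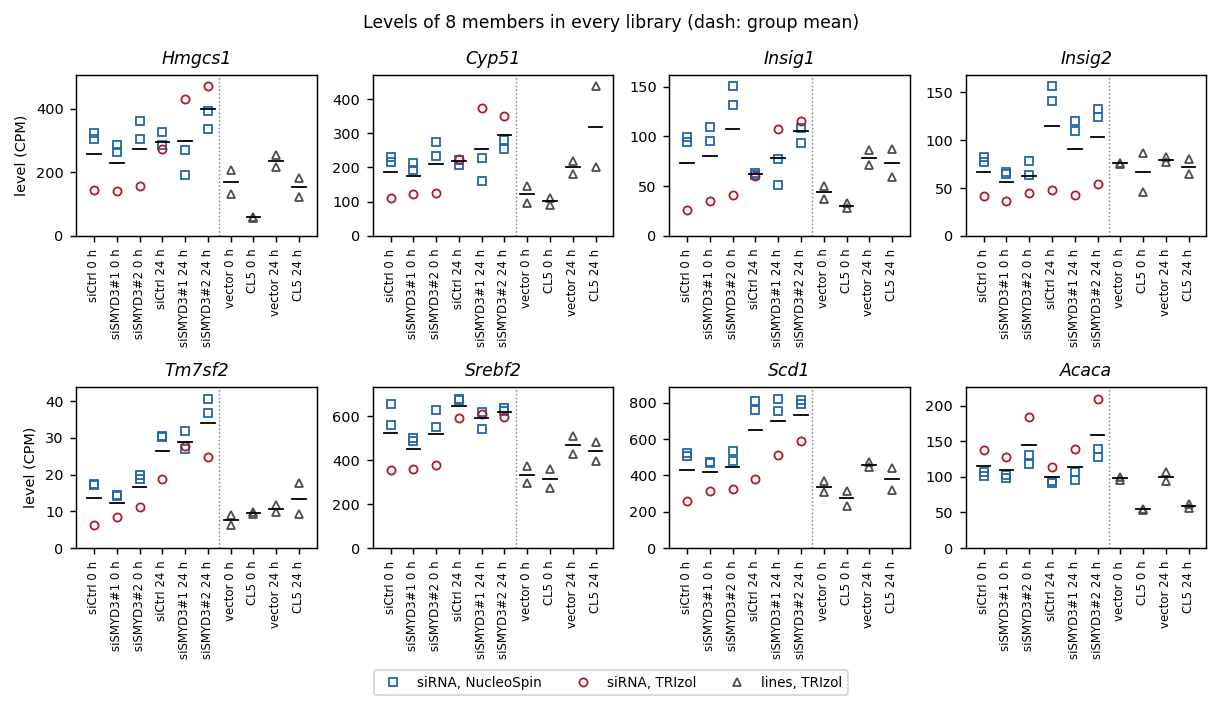
Level in CPM of 8 of the 33 genes in every library, by group, with NucleoSpin siRNA libraries as squares, TRIzol siRNA libraries as circles, the lines as triangles and the group mean as a dash. The dotted line divides the 2 experiments, which were scaled separately. The circles of Hmgcs1, Cyp51 and Insig1 lie below the squares at 0 h and within or above them at 24 h, and those of Insig2 and Scd1 lie below the squares at each time.

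The siRNAs directed against SMYD3 were compared with siCtrl next. At 0 h no gene passed with either siRNA (edgeR, 0 of 33, against 1.43% of all genes with siSMYD3#1, 0.853% lower, and 0.531% with siSMYD3#2, 0.316% higher). At an unadjusted p under 0.05 there were 2 and 3 genes, against 2196 and 1596 of all 15820 genes tested, and DESeq2 called 1 and 0. At 24 h siSMYD3#1 gave 1 gene higher and 1 lower (5.85% of all genes, 2.91% higher and 2.94% lower), with a median of 0.06 against 0.00, and siSMYD3#2 gave 3 genes higher (3.7% of all genes, 1.66% higher and 2.04% lower), with a median of 0.43 against 0.00. The siRNAs share the siCtrl libraries.

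With siSMYD3#2 the genes past the threshold at 24 h all belong to fatty acid synthesis. Acaca was at 91.3, 94.4 and 114 CPM in siCtrl (2 NucleoSpin libraries, then TRIzol) and at 128, 138 and 210 CPM with siSMYD3#2 (0.64 ± 0.09, adjusted p = 0.00018). Fads2 went from 156, 171 and 89.9 CPM to 225, 240 and 152 CPM (0.59 ± 0.13, adjusted p = 0.00936). Fads1 went from 193, 196 and 115 CPM to 240, 244 and 165 CPM (0.38 ± 0.07, adjusted p = 0.00313). Within each extraction method the siSMYD3#2 libraries of these 3 genes lay above the siCtrl ones. The call for Fads2 was lost in 14 of the 18 fits that left out 1 library, and that for Fads1 in 6. A replicate block left 2 genes past the threshold, without Fads2. The other genes did not pass, although 31 of 33 estimates were positive. An unadjusted p under 0.05 was found for 15 of the 33, against 3530 of all 15820 genes tested. Stard4 (0.91 ± 0.28, adjusted p = 0.058), Insig1 (0.80 ± 0.51, adjusted p = 0.405), Acat2 (0.80 ± 0.29, adjusted p = 0.113), which encodes an acetyl-CoA acetyltransferase, and Fdps (0.78 ± 0.25, adjusted p = 0.0726), the farnesyl diphosphate synthase gene, had the largest estimates. In the NucleoSpin libraries alone 30 of 33 genes were higher than in siCtrl (median 0.30), against 50.1% of all genes. In the TRIzol library all 33 were (median 0.65), against 51.4%. The genes also shifted together between like libraries at 24 h. The second NucleoSpin library was higher than the first for 30 of 33 with siSMYD3#2 (median 0.121) and 28 of 33 in siCtrl (0.095). The count was 1 without any 1 of the 6 libraries compared, 6 without the siSMYD3#1 TRIzol library at 24 h, which shares in the estimate of the spread, 6 with the time-by-extraction term and 21 with no filter on low counts. Shares over all genes in these fits are not given here. Marker levels moved with this comparison. All 6 cell division markers were higher with siSMYD3#2 than with siCtrl within each extraction method, with sums of 1294 to 1600 CPM against 977 to 1092 CPM. Of the 8 muscle markers 7 were lower, and their sums were 1536, 1467 and 488 CPM against 2515, 2511 and 773 CPM, the last of each from TRIzol. Myog, which encodes the differentiation factor myogenin, was at 48.6, 45.2 and 31.1 CPM against 222, 263 and 55.6 CPM. Their part in the result was not tested.

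The genes past the threshold with siSMYD3#1 at 24 h were of the fatty acid group too. Fads1 was at 270, 257 and 171 CPM, above the 193, 196 and 115 CPM of siCtrl (0.48 ± 0.07, adjusted p = 0.000245). Elovl6, the elongase that makes stearate from palmitate, was at 76.2, 58.9 and 86.5 CPM, below the 115, 133 and 97.5 CPM of siCtrl (-0.62 ± 0.13, adjusted p = 0.00362). Elovl6 lost its call without either siCtrl NucleoSpin library or either siSMYD3#1 NucleoSpin library at 24 h. The methods diverged for the set as a whole, since 9 of 33 genes were higher than in siCtrl in NucleoSpin libraries (median -0.22) but 31 of 33 in the TRIzol library (median 0.57). Of all genes 49.8% and 51.4% were higher. The NucleoSpin pair of this group also differed, with 32 of 33 genes lower in the second library than in the first (median -0.41, against -0.02 over all genes). Acat2, for example, was at 85.2 CPM in the first, 51.3 in the second and 122 in the TRIzol library. In the NucleoSpin libraries alone the test gave 7 genes, 1 higher and 6 lower. The share of all genes called in that fit is not given here, so the count alone does not set these genes apart. Here 3 of the 6 cell division markers were higher and 6 of the 8 muscle markers lower than in siCtrl within each method, with Myog at 19.8, 17.2 and 5.64 CPM, and their part was not tested either.

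**Figure D4:**
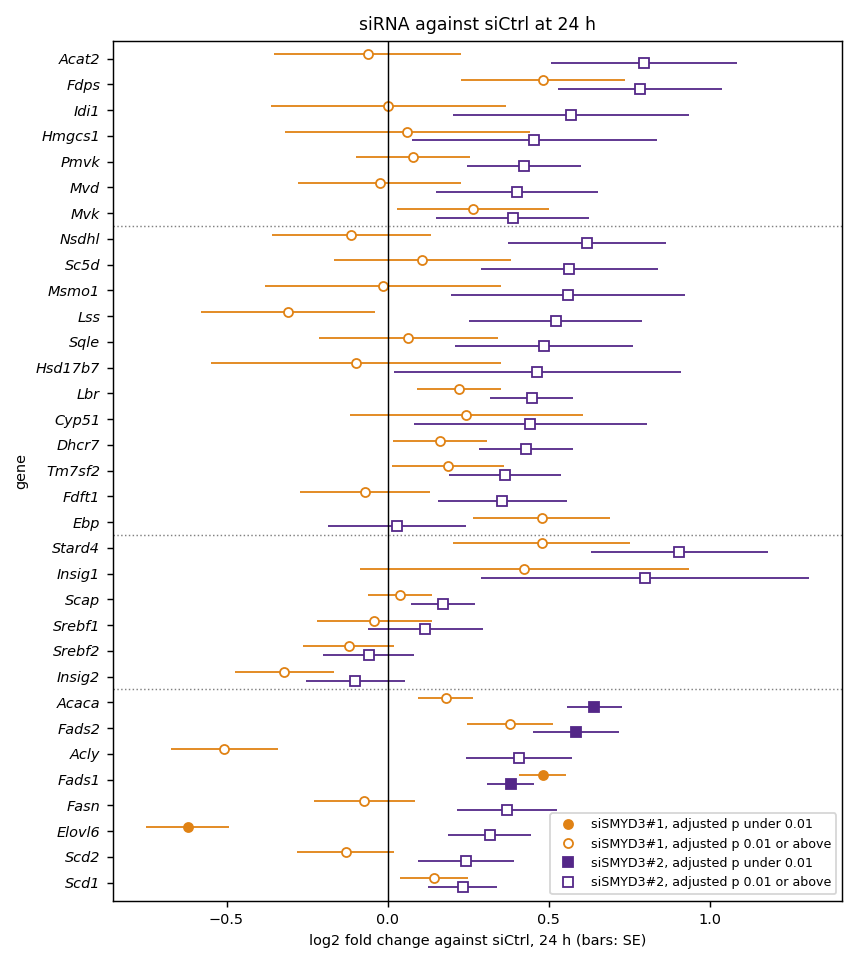
Log2 fold change against siCtrl at 24 h for each of the 33 genes with siSMYD3#1 (circles) and siSMYD3#2 (squares), with SE as bars and dotted lines between the 4 groups of genes. Filled symbols passed an adjusted p of 0.01. The squares lie to the right of 0 for 31 of 33 genes, and the circles spread from -0.62 (Elovl6) to 0.48 (Fads1).

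Set against each other, the siRNAs differed for 1 gene at 0 h (1.17% of all genes, 0.79% lower) and for 3 at 24 h (3.36% of all genes, 1.31% lower), all lower with siSMYD3#1. Acly, whose product supplies cytosolic acetyl-CoA, was at 233, 238 and 225 CPM with siSMYD3#1 and at 440, 463 and 386 CPM with siSMYD3#2 at 0 h (-0.89 ± 0.17, adjusted p = 0.00617), and at 213, 170 and 323 CPM against 412, 444 and 474 CPM at 24 h (-0.92 ± 0.17, adjusted p = 0.00261). Elovl6 differed at 24 h by -0.94 ± 0.13 (adjusted p = 0.000235), with 136, 154 and 138 CPM with siSMYD3#2. Acaca differed by -0.46 ± 0.09 (adjusted p = 0.00244). In siCtrl Acly was at 419, 430 and 340 CPM at 0 h, the estimate for siSMYD3#2 against siCtrl was 0.12 ± 0.16 (adjusted p = 0.9), and that for siSMYD3#1 was -0.77 ± 0.17 (adjusted p = 0.0134). All 33 estimates at 0 h and 31 of 33 at 24 h were lower with siSMYD3#1, with medians of -0.28 and -0.37 against 0.01 and -0.01 over all genes. The Acly call at 0 h was lost in 10 of the 18 fits that left out 1 library, and a replicate block also left 0 genes past the threshold at 0 h. The count at 24 h was 10 without the siSMYD3#1 TRIzol library and 1 without the second siSMYD3#1 NucleoSpin library, the second siSMYD3#2 NucleoSpin library or the siSMYD3#2 TRIzol library. For these fits the shares over all genes are not given here.

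In the lines no gene of the set passed in any comparison (edgeR, 0 of 33). Over all genes the share was 0.0% between 24 h and 0 h in vector and in SMYD3 CL5 cells, 1.07% for SMYD3 CL5 against vector at 0 h (0.606% lower) and 0.964% at 24 h, and 0.0% for the difference of the changes. At an unadjusted p under 0.05 there were 2, 10, 10, 3 and 2 genes of the 33 in these 5 comparisons. Over all 17835 genes tested there were 1256, 1137, 3258, 2488 and 312. DESeq2 called 0, 2, 4, 1 and 0 of the 33, and its shares over all genes are not given here. The spread was wide, with a common dispersion of 0.0903 against 0.0159 in the siRNA experiment, and the CL5 libraries at 0 h differed between themselves by a median absolute log2 ratio of 0.72 over all genes.

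The values in the lines were as follows. Idi1, the isopentenyl diphosphate isomerase gene, was at 22.3 and 33.7 CPM in vector cells and 8.30 and 3.82 CPM in SMYD3 CL5 cells at 0 h, and at 30.9 and 29.4 against 21.1 and 22.2 CPM at 24 h (-2.21 ± 0.39, adjusted p = 0.0273 at 0 h). Hmgcs1 was at 132 and 206 CPM against 58.4 and 57.0 CPM at 0 h (-1.55 ± 0.30, adjusted p = 0.0369), and at 215 and 254 against 123 and 182 CPM at 24 h (-0.62 ± 0.30, adjusted p = 0.425). At 0 h the groups did not overlap for either gene. All 8 fatty acid genes had lower estimates in SMYD3 CL5 at each time, with medians of -0.58 at 0 h and -0.36 at 24 h. Acaca was at 95.6 and 99.6 CPM in vector and 55.1 and 53.8 CPM in SMYD3 CL5 cells at 0 h, and at 94.3 and 106 against 62.1 and 56.0 CPM at 24 h (-0.84 ± 0.20, adjusted p = 0.0623, and -0.76 ± 0.20, adjusted p = 0.0956). At 0 h, 6 of the 8 muscle markers were higher in both SMYD3 CL5 libraries and 1, Myf5, was lower, and 4 of the 6 cell division markers were lower. The muscle sums were 876 and 1647 CPM against 558 and 621 CPM in vector cells, and those of cell division 1291 and 1664 against 1841 and 2019 CPM. Myog was at 15.9 and 81.9 CPM in SMYD3 CL5 and 0.28 and 0.54 CPM in vector cells. Of the 7 adipocyte markers 2 were higher and 0 lower at 0 h, with sums of 50.85 and 55.68 against 34.1 and 33.03 CPM. Cebpa made up most of these differences, at 32.76 and 37.42 against 13.44 and 16.16 CPM. At 24 h 5 muscle markers were higher and 1 lower, 1 cell division marker higher and 5 lower, and 1 adipocyte marker higher. The part of all these markers in the result was not tested. Without the first SMYD3 CL5 library at 0 h, 3 genes passed at 0 h, all lower in SMYD3 CL5, and without the second 1 did.

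Between 24 h and 0 h, 31 of 33 estimates were positive in SMYD3 CL5 cells (median 0.44 against 0.03 over all genes) and 30 of 33 in vector cells (median 0.28 against 0.00). Libraries of the same group differed by as much. In vector cells at 0 h all 33 genes were higher in the second library than in the first (median 0.387, against 0.031 over all genes). In SMYD3 CL5 cells at 24 h 27 of 33 were (median 0.53, against -0.001). Insig1 was at 37.0 and 50.4 CPM in vector cells at 0 h and at 70.8 and 85.8 CPM at 24 h, and at 27.7 and 33.1 and then 59.2 and 87.5 CPM in SMYD3 CL5 cells. Its log2 changes were 0.84 ± 0.28 (adjusted p = 0.572) and 1.27 ± 0.28 (adjusted p = 0.386). Cyp51 was at 96.2 and 146 CPM and then 182 and 220 CPM in vector cells, and at 90.4 and 112 and then 201 and 437 CPM in SMYD3 CL5 cells. Srebf2 was at 295 and 374 and then 430 and 512 CPM in vector cells, and Insig2 at 75.4 and 76.5 and then 82.5 and 76.8 CPM. In vector cells the times did not overlap for these genes, but for Insig2 the gap between them was small. All libraries of the lines are TRIzol libraries.

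**Figure D5:**
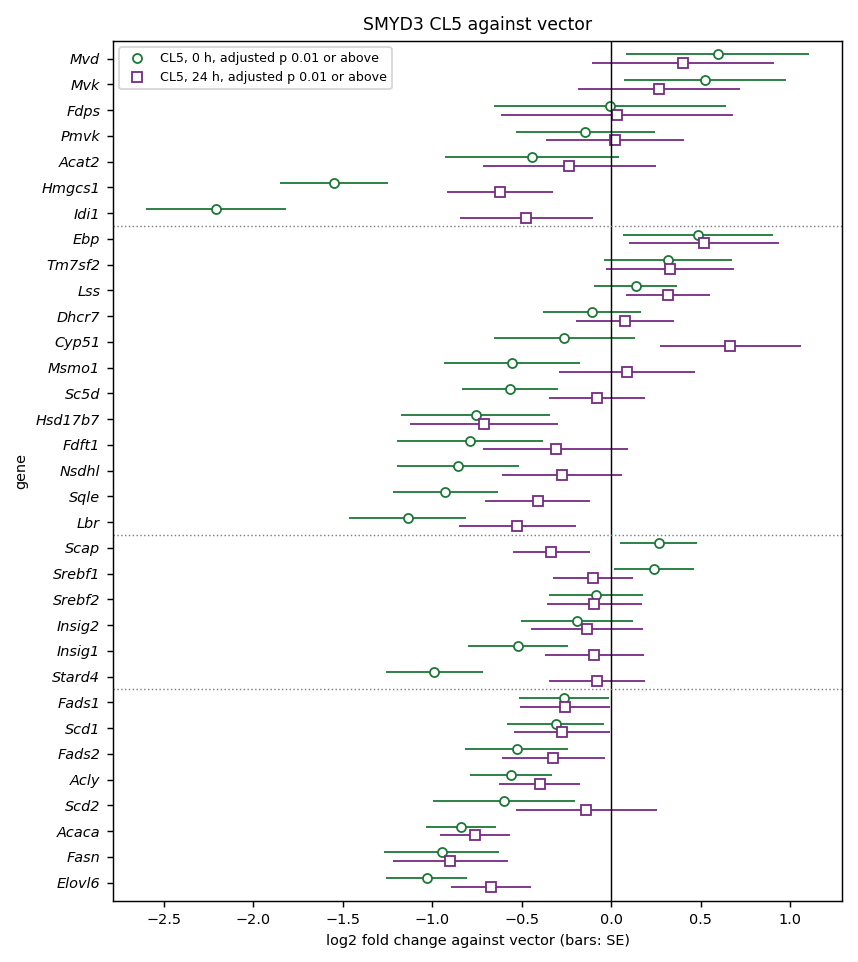
Log2 fold change of SMYD3 CL5 against vector for each of the 33 genes at 0 h (circles) and 24 h (squares), with SE as bars and dotted lines between the 4 groups of genes. All symbols are open, as no gene passed an adjusted p of 0.01. The 8 fatty acid genes lie to the left of 0 at each time, and Idi1 and Hmgcs1 lie farthest to the left at 0 h, at -2.21 and -1.55.

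A further 48 genes of sterol export, storage, isoprenoid branches and fatty acid supply were examined in the same fits. Between 24 h and 0 h in siCtrl cells 12 were higher and 4 lower (33.3%, against 29.4% of all genes tested, 14.6% higher and 14.8% lower), the largest being Mylip (1.49, adjusted p = 0.00164), which encodes a ubiquitin ligase of lipoprotein receptors, the acyl dehydratase gene Hacd1 (1.18, adjusted p = 4.96e-08) and the acyl-CoA synthetase gene Acsl3 (1.11, adjusted p = 1.57e-05) upwards. Downwards they were Pdss1 (-1.30, adjusted p = 7.66e-06), a gene of coenzyme Q synthesis, Acsl5 (-0.56, adjusted p = 1.45e-05) and Hsd17b12 (-0.48, adjusted p = 0.00302). With siSMYD3#1 Acsl3 (1.10), Lipa (1.05) and Lpin1 (0.88) led 12 higher genes and Pdss1 (-1.20) and Acsl5 (-0.47) were lower, and with siSMYD3#2 Mylip (1.35), Acsl3 (1.11) and Lpin1 (1.04) led 9 higher genes and Pdss1 (-0.95) and Acsl5 (-0.36) were lower. These were 29.2% and 22.9% of the 48, against 25.4% and 19.0% of all genes. Against siCtrl at 0 h, Hacd1 was higher with siSMYD3#1 (0.71, adjusted p = 0.000287) and with siSMYD3#2 (0.56, adjusted p = 0.00404), where 1.43% and 0.531% of all genes passed. At 24 h siSMYD3#1 gave 4 higher, led by Erlin2 (0.57), Lipa (0.55) and Osbp (0.35), and 2 lower, Acsl1 (-0.49) and Ggps1 (-0.46), while siSMYD3#2 gave Acsl5 alone (0.37). Of all genes 5.85% and 3.7% passed in these comparisons. Against siSMYD3#2, siSMYD3#1 gave Erlin2 higher at 0 h (0.67) and Erlin2 (0.65) and Lipa (0.55) higher at 24 h, where 1.17% and 3.36% of all genes passed.

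Of the 48 genes, 12 were higher and 16 lower in TRIzol than in NucleoSpin libraries in the fit without the interaction term (58.3%, against 51.3% of all genes, 26.1% higher and 25.3% lower), led by Abca1 (3.77), Abcg1 (3.09) and Mylip (0.83) upwards and by Mid1ip1 (-0.96), Acss2 (-0.92) and Acsl4 (-0.81) downwards. The change over time differed between the methods for 5 (10.4%, against 10.3% of all genes), namely Abcg1 (1.34), Acsl4 (0.70), Acsl3 (0.58), Mylip (-1.37) and Erlin1 (-0.81). Abcg1, a sterol exporter gene, was at 3.79, 6.05 and 4.39 CPM in the TRIzol libraries at 0 h (siCtrl, siSMYD3#1 and siSMYD3#2) and at 8.23, 7.85 and 8.94 CPM at 24 h, against 0.44 to 1.16 CPM over the 12 NucleoSpin libraries. Its log2 difference was 2.46 at 0 h (adjusted p = 3.11e-11) and 3.80 at 24 h (adjusted p = 5.87e-14). Mylip was at 15.2, 16.9 and 16.1 CPM in TRIzol libraries at 0 h against 4.87 to 7.04 CPM in NucleoSpin ones, and at 19.4 to 23.5 CPM in all libraries at 24 h. At 0 h Mylip was higher in the same TRIzol libraries in which Insig1, Msmo1 and Sqle were lower, and the levels of Mylip met at 24 h as theirs did. Abcg1 did not take this course, as its levels stayed apart at 24 h with a larger difference than at 0 h. The part of passage, extraction or culture conditions in these differences was not tested.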

How the data were processed

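RNA-seq was made from C2C12 cells with a stranded mRNA kit in 18 libraries of the siRNA experiment and 8 of the lines. Per the labels and the study's methods, the authors checked reads with FastQC 0.11.5, aligned them to GRCm38 with HISAT2 2.1.0 and deposited unnormalised counts per gene from featureCounts (Subread 1.6.3). The annotation release and the strand setting of the counting are not given in the sources used here, and symbols were taken from GENCODE M21. Of the 33 genes, 12 share exon bases with another gene, 5 of them on the same strand (Fdps, Tm7sf2, Lbr, Srebf1 and Scd2), so that their counts are less certain.

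The siRNA experiment and the lines were modelled separately in edgeR 4.0.16 in R 4.3.3 (quasi-likelihood test, filterByExpr, TMM, Benjamini-Hochberg adjustment over all genes tested, threshold 0.01), with extraction method as covariate in the siRNA experiment. Deviations of same-numbered siRNA libraries from their group means correlated at 0.313 to 0.851. As each group mixes the extraction methods, these deviations contain the extraction difference and cannot show pairing by number. Within NucleoSpin the correlations ran from -0.111 to 0.201. A fit with a time-by-extraction term was added after the values had been seen. Every p in the text is from these fits unless DESeq2 1.42.0, used as an alternative, is named. Levels are CPM with TMM factors, scaled separately per experiment. The scripts were tested on simulated data. The 33 genes and the other lists were chosen with earlier results of these data known. Genes past the threshold with the largest changes are named with their values, and the rest are given by counts and ranges. The study calls its libraries biological replicates, but the labels do not say which were separate cultures, so p-values measure the spread between these libraries. No pair of the 325 library pairs was identical (0 found).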

Additional observations from a re-analysis of the deposited data

Results flagged for a closer look

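The change from 0 h to 24 h differed between TRIzol and NucleoSpin libraries for 13 of the 33 genes by a test of the difference itself (edgeR, time-by-extraction term, adjusted p under 0.01). The log2 difference, TRIzol minus NucleoSpin, was 2.048 for Insig1, 1.591 for Hsd17b7, 1.443 for Hmgcs1, 1.396 for Cyp51, 1.291 for Msmo1, 1.038 for Stard4, 1.019 for Sc5d, 0.996 for Sqle, 0.935 for Lss, 0.769 for Ebp, 0.651 for Srebf1, 0.558 for Srebf2 and -0.609 for Insig2. The TRIzol libraries came from another passage of the cells and carry 1 study replicate number, so extraction, passage and replicate cannot be told apart. At 0 h the summed muscle markers also differed, at 217.2 to 257 CPM in TRIzol and 1153 to 1526 CPM in NucleoSpin libraries. Most of this gap was Des, without which the sums were 149 to 173 and 306 to 408 CPM. Their part in the result was not tested. Without the siCtrl TRIzol library at 24 h the call for Insig2 was lost.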

How the results depend on the processing

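Of 117 called results for single genes, all kept direction and call with DESeq2, and none reversed in any alternative run (0 reversed). Counts of the 33 genes past the threshold moved by over 1.5 times as follows, and the cause was not tested. The shares over all genes in these runs are not given here. The counts alone therefore do not say whether the 33 genes moved more than all genes did. With no low-count filter, the change with time went from 4 to 8 (siCtrl), 5 to 11 (siSMYD3#1) and 4 to 14 (siSMYD3#2), siSMYD3#1 against siCtrl from 0 to 2 at 0 h and 2 to 8 at 24 h, siSMYD3#2 against siCtrl from 0 to 2 and 3 to 21, the siRNAs against each other from 1 to 8 and 3 to 17, the siSMYD3#2 difference of changes from 0 to 1, TRIzol against NucleoSpin from 13 to 24 (at 24 h 12 to 20), the NucleoSpin change from 7 to 18, the difference between methods from 13 to 26, the SMYD3 CL5 change from 0 to 3 and SMYD3 CL5 against vector at 0 h from 0 to 2. Without the extraction covariate, the siCtrl change gave 1, the changes with either siRNA 0, either siRNA against siCtrl at 24 h 0, and the siRNAs against each other 0 at 0 h and 1 at 24 h, and 20 of 22 single-gene calls were lost. In NucleoSpin libraries alone, the siSMYD3#1 change gave 8, siSMYD3#1 against siCtrl 1 and 7, siSMYD3#2 against siCtrl at 24 h 5, and the siRNAs against each other 4 and 16. With the time-by-extraction term, the siSMYD3#2 change gave 7, siSMYD3#1 against siCtrl at 0 h 1, siSMYD3#2 against siCtrl at 24 h 6, and the siRNAs at 0 h 3. At an adjusted p under 0.05, siSMYD3#1 against siCtrl at 0 h gave 1, the siRNAs at 0 h 3, SMYD3 CL5 against vector at 0 h 2, the NucleoSpin change 13 and the difference between methods 21. With DESeq2, siSMYD3#1 against siCtrl at 0 h gave 1, the siRNAs at 0 h 3, the siSMYD3#1 difference of changes 1, the SMYD3 CL5 change 2, SMYD3 CL5 against vector 4 and 1, and the difference between methods 20. RLE size factors gave 2 for the siRNAs at 0 h.

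Leaving out 1 library at a time gave 4 to 4 (siCtrl change), 2 to 5 (siSMYD3#1 change), 2 to 6 (siSMYD3#2 change), 0 to 1 and 1 to 3 (siSMYD3#1 against siCtrl at 0 h and 24 h), 0 to 0 and 1 to 6 (siSMYD3#2 against siCtrl), 0 to 2 and 1 to 10 (the siRNAs against each other), 10 to 22 (TRIzol against NucleoSpin), 23 to 32 and 10 to 17 (the same at 0 h and 24 h), 7 to 12 (NucleoSpin change), 18 to 25 (TRIzol change), 10 to 21 (difference between methods), 0 to 2 (SMYD3 CL5 change) and 0 to 3 (SMYD3 CL5 against vector at 0 h). The siSMYD3#1 TRIzol library at 24 h gave the 22 and the 12 when left out. In 138 of these single-gene fits a call was lost.

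With the replicate block (the study's replicate number, which contains the extraction method), the siRNAs at 0 h gave 0 in place of 1 and siSMYD3#2 against siCtrl at 24 h gave 2 in place of 3. In the lines it left 0 of the 33 genes called in every comparison. Deviations of same-numbered libraries correlated at 0.313 to 0.851 across all numbers of the siRNA experiment, where they contain the extraction difference. The correlations were -0.111 to 0.201 within NucleoSpin and -0.097 to 0.483 in the lines, where pairs had either sign. An effect of depth was not tested.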
